A study of Mus musculus with 15 samples.

Results

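The genes described here are 10 mouse genes whose products make piRNAs or belong to the germ cell granules of the piRNA pathway: Pld6, Mov10l1, Asz1, Pnldc1, Henmt1, Mael, Ddx4, Gtsf1, Fkbp6 and Exd1. They were chosen by name from what their proteins do, and they are 10 of the 54838 gene identifiers in the gene count tables of 6 libraries. The libraries are RNA-seq of gonocytes, the arrested male germ cells of the foetal testis, sorted from foetal testes at the E16.5 stage. Of these, 3 came from Tex15+/- foetuses, which are the controls and still carry 1 mutated Tex15 allele, and 3 from Tex15-/- foetuses, in which both copies of the gene are mutated. All cells of both genotypes carried a tdTomato reporter at the Miwi2 gene on 1 allele, and this reporter was used to sort them, so that they were heterozygous for the tagged Miwi2 allele as well. The mice were of a mixed B6CBAF1/Crl and C57BL/6N background and the mutant line descends from 1 founder. How many foetuses went into each library is not given, nor whether the libraries are separate animals, so the p-values below measure only the spread between these libraries.

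PIWI-interacting RNAs (piRNAs) are small RNAs that guide PIWI proteins to transposon transcripts in germ cells. In foetal gonocytes the granule called intermitochondrial cement, or pi-body, lies between clustered mitochondria. Long piRNA precursors are selected, cut at the mitochondrial surface, bound by MILI or MIWI2, and trimmed and methylated at the 3′ end. The finished complexes silence transposons, in the nucleus through DNA methylation. Loss of most of these genes in mice leaves males sterile with transposons derepressed. TEX15 acts with MIWI2 in the nucleus, and the comparison asks whether the messages for the cytoplasmic side of the pathway differ when Tex15 is lost.

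The libraries held between 4893265 and 5697020 reads counted on genes. Tex15 itself was measured in CPM, the reads on a gene scaled to the library size with trimmed-mean (TMM) factors, at 1509, 1667 and 1664 in the controls but 469, 230.2 and 249 in the Tex15-/- group, a log2 fold change of -2.35 (SE 0.229, edgeR adjusted p = 0.0112). Of 16311 genes with enough counts to be tested, none had an adjusted p under 0.01 in edgeR's quasi-likelihood test, while 1501 had an unadjusted p under 0.05 and DESeq2 called 14. The share of genes called was therefore 0.0%. The germ cell markers, 10 genes such as Dazl and Sall4, summed to 1336 to 1384 CPM in controls and 1308, 1089 and 1325 CPM in Tex15-/- replicates 1 to 3. In controls Dazl was at 255 to 292 CPM and Nanos2 at 0.602 to 1.47 CPM. A set of 36 markers of Sertoli, Leydig, interstitial, endothelial and blood cells summed to 169 to 234 CPM in controls and 171, 2824 and 813 CPM in Tex15-/- replicates 1 to 3. Tex15-/- replicates 2 and 3 thus stood apart, with all 36 markers above 0, against 3 or 4 markers at 0 in each of the other libraries. Reads that matched no annotated exon, as a share of these and the reads counted on genes, came to 22.3% in Tex15-/- replicate 2, 30.2% in replicate 3 and 36.6% to 41.6% in the rest. In libraries made from sorted cells in bulk, fewer cells of a type and less RNA per cell cannot be told apart.

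All 10 genes were expressed in control gonocytes, over a wide range. Levels are compared between genes in TPM, the count divided by the exon length of the gene and scaled within the library, as mean ± SD over 3 control libraries. Mael was highest at 147 ± 13.2 TPM and ranked 34 of 19786 protein-coding genes with any read. Ddx4 followed at 92.8 ± 3.88 TPM and rank 67, Fkbp6 at 58.0 ± 5.15 TPM and rank 120, and Mov10l1 at 49.4 ± 2.70 TPM and rank 139. These 4 genes kept this order in all 6 libraries. Asz1, with 16.9, 17.7 and 19.4 TPM in the 3 controls (SD 1.31) and rank 524, and Gtsf1 at 17.9 ± 2.90 TPM, rank 530, formed a middle level. With the longest transcript as the length, Gtsf1 came to 29.7 TPM and stood above Asz1, at 21.2 TPM. The enzymes that finish the piRNA, Pnldc1 at 5.99 ± 0.344 TPM and Henmt1 at 3.89 ± 0.398 TPM, ranked 2071 and 3242. Pld6 at 3.24 ± 0.541 TPM and Exd1 at 2.73 ± 0.199 TPM were lowest, at ranks 3838 and 4442.

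The ranges of neighbours in this order over the 3 control libraries did not overlap except for 3 pairs, Asz1 with Gtsf1, Henmt1 with Pld6, and Pld6 with Exd1. Within each control library Henmt1 was still above Pld6, by 1.07-fold to 1.29-fold. Mael and Ddx4 together made up 58.7% to 63.8% of the summed TPM of the 10 genes in a library. The highest of the 10 exceeded the lowest by 50.4-fold to 71.6-fold within a library. Mael was the highest in all 6 libraries, and the lowest was Exd1 in 3 and Pld6 in the other 3. The same 43 of the 45 pairs of these genes kept their order in all 6 libraries, and the exceptions were Asz1 with Gtsf1 and Pld6 with Exd1.

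**Figure D1:**
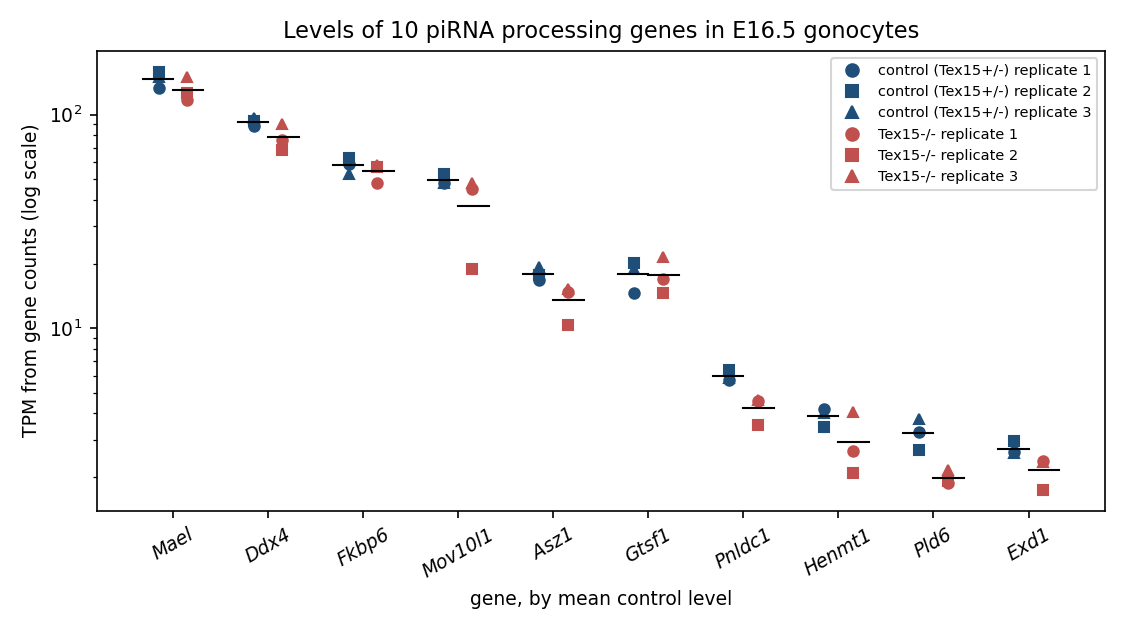
TPM on a log scale (y axis) of the 10 piRNA processing genes, ordered by mean control level (x axis), in each control and Tex15-/- library of E16.5 gonocytes, with bars at the group means. Mael, at 147 TPM on average in controls, and Exd1, at 2.73 TPM, mark the ends of the range. TPM serves to order genes within a library, and genotypes are compared in TMM-scaled CPM.

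The letters at the start of these genes were read from RefSeq for GRCm38.p6, which held 11 promoter windows for 9 of the 10 genes, Fkbp6 and Pld6 having more than 1, each running from 250 bases before to 50 bases after an annotated start. The motif CACGTG, an E-box that reads the same on both strands and so needs 1 search, stood in the windows of 5 of the 9 genes (55.56%). Of all 27025 genes with such windows, 8.093% held it, and of the 11616 tested in the gonocytes, 11.56% did. Among other genes of the pathway it stood in 3 of 4 PIWI and nuclear effector genes with windows (75%) and in 3 of 7 Tudor genes (42.86%). It stood in 0 of 4 co-chaperone, lipid and mitochondrial partner genes (0%) and in 1 of 7 relatives of the 10 genes (14.29%). Genes differ in their number of windows. By window the share was 54.55% for the 10 genes (6 of 11), 33.33% for the PIWI and effector genes (3 of 9) and 38.46% for the Tudor genes (5 of 13). It was 0% for the partner genes, 12.5% for the relatives, 9.699% for the tested genes and 7.15% for all genes. The motif stood in Mael, Ddx4, Fkbp6 and Mov10l1, the 4 highest of the 10 genes, and in Pld6, which is among the lowest. It was picked after the data were seen, and its share among other genes of such levels was not counted. A link between motif and level was not tested. The windows of Asz1, Gtsf1, Henmt1 and Exd1 did not hold these letters. The Henmt1 window (chr3:108940307-108940606, plus strand) lies inside the gene as annotated for the counts, which starts at 108939873. The bases before that start were not searched. The median number of CpG per gene was 25 for the 9 genes and 21 for the tested genes. For each of the 5 genes with the motif, 1 window that holds it is shown 5′ to 3′ along the strand of the gene, with CACGTG in capitals. The first base of the motif lay 223 bases before the start in Mael (chr1:166238695-166238994, minus strand), 29 before in Ddx4 (chr13:112652261-112652560, minus strand), 101 and 37 before in Fkbp6 (chr5:135349995-135350294, minus strand), 246 before in Mov10l1 (chr15:88982744-88983043, plus strand) and 33 before in Pld6 (chr11:59787608-59787907, minus strand). The other Fkbp6 window (chr5:135349864-135350163, minus strand) overlaps the one shown and holds the same matches, 232 and 168 bases before its own start, and the other Pld6 window does not hold the motif. A match describes the letters only, and binding was not measured.
Mael: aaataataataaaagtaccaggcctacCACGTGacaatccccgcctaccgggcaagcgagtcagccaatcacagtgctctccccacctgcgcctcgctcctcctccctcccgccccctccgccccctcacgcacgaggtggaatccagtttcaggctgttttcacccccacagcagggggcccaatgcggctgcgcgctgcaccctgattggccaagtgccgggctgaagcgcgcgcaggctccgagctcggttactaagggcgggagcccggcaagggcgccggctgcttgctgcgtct
Ddx4: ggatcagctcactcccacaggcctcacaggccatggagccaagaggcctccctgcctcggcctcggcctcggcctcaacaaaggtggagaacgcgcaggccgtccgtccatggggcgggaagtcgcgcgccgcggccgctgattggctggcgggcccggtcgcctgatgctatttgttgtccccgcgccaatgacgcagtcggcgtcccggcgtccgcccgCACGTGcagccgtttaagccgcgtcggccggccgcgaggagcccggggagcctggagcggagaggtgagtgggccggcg
Fkbp6: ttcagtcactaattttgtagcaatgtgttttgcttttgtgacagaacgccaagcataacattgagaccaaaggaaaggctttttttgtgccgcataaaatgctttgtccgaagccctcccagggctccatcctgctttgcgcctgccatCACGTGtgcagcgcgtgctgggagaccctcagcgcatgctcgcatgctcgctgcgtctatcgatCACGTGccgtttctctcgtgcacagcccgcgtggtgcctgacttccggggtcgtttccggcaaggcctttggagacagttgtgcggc
Mov10l1: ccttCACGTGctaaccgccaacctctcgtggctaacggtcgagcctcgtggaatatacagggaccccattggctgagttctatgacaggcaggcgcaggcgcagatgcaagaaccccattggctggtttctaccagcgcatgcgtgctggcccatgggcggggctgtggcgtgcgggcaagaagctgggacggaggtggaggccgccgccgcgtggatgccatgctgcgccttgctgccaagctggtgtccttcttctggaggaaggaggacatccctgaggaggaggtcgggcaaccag
Pld6: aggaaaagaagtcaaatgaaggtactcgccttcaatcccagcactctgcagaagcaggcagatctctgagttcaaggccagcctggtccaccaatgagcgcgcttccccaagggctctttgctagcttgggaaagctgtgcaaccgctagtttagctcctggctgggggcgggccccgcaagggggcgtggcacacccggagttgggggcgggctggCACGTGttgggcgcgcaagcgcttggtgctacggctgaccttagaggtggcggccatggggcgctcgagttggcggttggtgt

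Between genotypes, none of the 10 genes passed the threshold. All 10 were tested, and edgeR called 0 of 10, against 0.0% of all genes tested. Tex15 itself, at a log2 fold change of -2.35, was not called either (edgeR adjusted p = 0.0112), so the count of 0 says little about smaller changes. An unadjusted p under 0.05 was found for 1 of 10 (Pnldc1), against 9.2% of all genes tested, which is about the background rate. DESeq2 called 0 of 10, against 0.0739% of the 18947 genes to which it gave an adjusted p. The estimated log2 fold change was below 0 for 7 of the 10 and above 0 for 3. Size factors from the germ cell markers moved the median of all genes to 0.22, and under them Ddx4 at 0.16 and Exd1 at 0.058 were above 0 but below that median. These factors weigh the 10 markers equally, although Nanos2 held only 2 to 11 and Nanos3 9 to 23 reads per library. With total counts Mael stood at -0.0023. With the scaling used throughout, the median over the 10 genes was -0.19, against -0.00031 over all 16311 genes tested. Of the germ cell markers, 8 of 9 tested were below 0 and 1 was above, with a median of -0.11. Dazl, Nanos3 and Tex101 of these 10 markers had all Tex15-/- values below the controls, and the other markers overlapped. The medians of the other pathway genes, given below, were 0.041 for PIWI proteins and nuclear effectors, 0.022 for Tudor genes and 0.098 for partners. The 95% interval lay within a 2-fold change in either direction for 9 genes, all but Pld6, and within 1.5-fold for 6, namely Mael, Ddx4, Fkbp6, Asz1, Gtsf1 and Exd1. These intervals take the TMM scaling as given. With size factors from the germ cell markers, Mael at 0.256 and Ddx4 at 0.160 lay above their upper limits of 0.244 and 0.136. The estimates of the other genes stayed inside their intervals. All 3 Tex15-/- values lay below all 3 control values for 2 of the 10 genes, Pnldc1 and Pld6, where 6.68% of all genes did so. None of the 10 had all Tex15-/- values above the controls, where 6.51% of all genes did. Summed, the 10 genes came to 2545, 2454 and 2529 CPM in controls 1 to 3 and to 2351, 2274 and 2572 CPM in Tex15-/- replicates 1 to 3, with overlap.

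**Figure D2:**
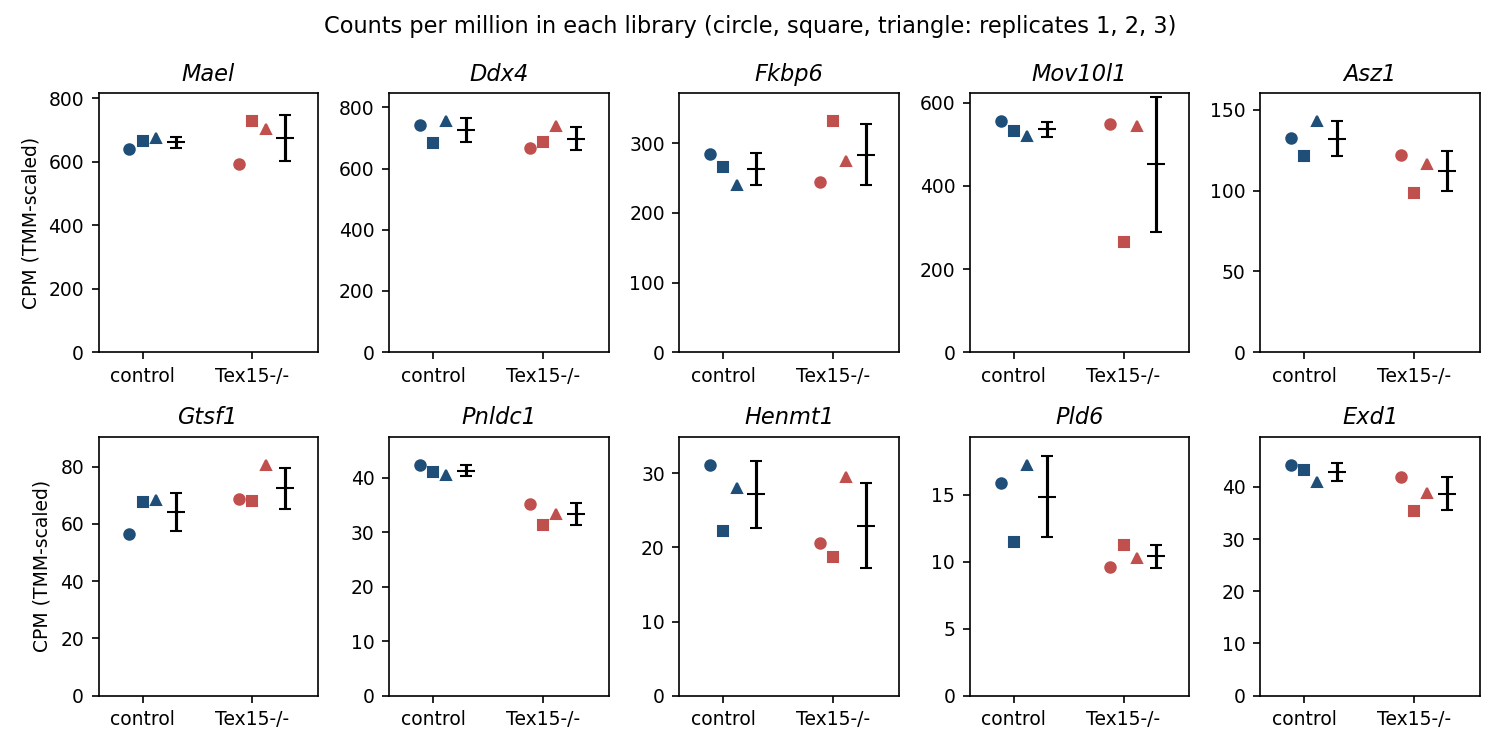
TMM-scaled CPM (y axis of each panel, starting at 0) of each of the 10 genes in 3 control and 3 Tex15-/- libraries (x axis), with black bars for the mean and SD of each genotype. Pnldc1 and Pld6 are lower in all Tex15-/- libraries than in any control (relative to germ cell markers Pld6 overlaps), and Mov10l1 is low in Tex15-/- replicate 2, at 264 CPM.

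The first group acts on the precursor. Mov10l1 (ENSMUSG00000015365, chr15:88982909-89055152, plus strand) encodes an RNA helicase that binds piRNA precursors and feeds them into cutting. Control libraries had 555, 531 and 520.3 CPM, and Tex15-/- libraries had 548, 264 and 545 CPM. Replicates 1 and 3 lay within the control range, and replicate 2 stood at -1.02 on the log2 scale relative to the control mean. The log2 fold change was -0.24 (SE 0.218, 95% interval -0.73 to 0.24, edgeR adjusted p = 0.725) and 0.032 without Tex15-/- replicate 2. That library is also the one with 2824 CPM of somatic markers, and the part of those cells in the low value was not tested. Tex15-/- replicate 3, with 813 CPM of somatic markers, held Mov10l1 at the control level.

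Pld6 (ENSMUSG00000043648, chr11:59783897-59787645, minus strand) encodes a phospholipase D family protein of the outer mitochondrial membrane, also called MitoPLD and the counterpart of fly Zucchini, that is needed to cut precursors into piRNA-sized pieces. It was counted with few reads, which numbered 86, 57 and 94 in controls against 48, 62 and 54 after loss of Tex15. Scaled, they came to 15.9, 11.4 and 17.2 CPM for controls, against 9.62, 11.3 and 10.3 CPM for Tex15-/- libraries. The groups did not overlap, but control replicate 2, at 11.4 CPM, all but touched Tex15-/- replicate 2, at 11.3 CPM. The log2 fold change of -0.51 (SE 0.249, 95% interval -1.06 to 0.036) was the lowest of the 10 and did not pass (edgeR adjusted p = 0.568, exact permutation p = 0.1, the smallest that 3 libraries against 3 allow). Its SD in controls, 3.03 CPM, was larger than in Tex15-/- libraries, 0.829 CPM.

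Asz1 (ENSMUSG00000010796, chr6:18050964-18109061, minus strand) encodes GASZ, a scaffold with ankyrin repeats that is anchored in mitochondria and holds the cement together. Controls measured 132, 121 and 143 CPM, while Tex15-/- libraries measured 122, 98.3 and 117 CPM. Only Tex15-/- replicate 1 reached into the control range. Its log2 fold change was -0.24 (SE 0.118, 95% interval -0.50 to 0.024, edgeR unadjusted p = 0.0707, adjusted p = 0.573). Pld6 and Asz1 are both bound to mitochondria, yet Asz1 was the more abundant message, with a rank of 524 against 3838 in controls.

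The second group finishes the 3′ end. Pnldc1 (ENSMUSG00000073460, chr17:12888729-12910230, minus strand) encodes the exonuclease that trims piRNA intermediates to their final length. Its level was 42.4, 41.1 and 40.5 CPM in the controls, with an SD of 0.971 CPM, and 35.3, 31.3 and 33.3 CPM in Tex15-/- libraries, with an SD of 2.01 CPM. The groups did not overlap. This gave a log2 fold change of -0.31 (SE 0.135, 95% interval -0.61 to -0.016), with an unadjusted edgeR p of 0.0408, an adjusted p of 0.521 and an exact permutation p of 0.1. It therefore did not pass over all genes tested. An antisense gene shares 144 bp of its exons and had 1 to 6 reads per library.

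Henmt1 (ENSMUSG00000045662, chr3:108939873-108960774, plus strand) encodes the methyltransferase that adds a 2′-O-methyl group to the trimmed end and so protects it. Controls gave 31.2, 22.3 and 28.0 CPM, and Tex15-/- libraries gave 20.6, 18.7 and 29.5 CPM. Tex15-/- replicates 1 and 2 were below all controls and replicate 3 was within the control range. The log2 fold change was -0.24 (SE 0.219, 95% interval -0.73 to 0.24, edgeR adjusted p = 0.727). A protein-coding gene on the other strand shares 392 bp of exon with it and had 0 reads in every library.

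The third group acts in germ granules or with PIWI proteins. Ddx4 (ENSMUSG00000021758, chr13:112598333-112652475, minus strand) encodes MVH, the mouse Vasa, a DEAD-box RNA helicase that marks germ cells. At 742, 682 and 755 CPM, the controls overlapped the Tex15-/- libraries, at 667, 687 and 740.2 CPM. The difference on the log2 scale was -0.058 (SE 0.0875, 95% interval -0.25 to 0.14, edgeR adjusted p = 0.842). Mael (ENSMUSG00000040629, chr1:166201201-166238747, minus strand) encodes Maelstrom, an HMG-box protein of germ granules. Its 640.1, 667 and 676 CPM in controls lay between the Tex15-/- values, which were 593, 728 and 703 CPM. On the log2 scale the difference was 0.030 (SE 0.0971, 95% interval -0.18 to 0.24, edgeR adjusted p = 0.930). These 2 genes, the highest of the 10, had the narrowest intervals.

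Gtsf1 (ENSMUSG00000022487, chr15:103402405-103430470, minus strand) encodes a small zinc finger protein that assists PIWI proteins in cleaving their targets. Control values were 56.4, 67.8 and 68.4 CPM, and Tex15-/- values were 68.5, 68.1 and 80.7 CPM. Tex15-/- replicate 2 lay within the control range and replicates 1 and 3 above it. The log2 fold change of 0.18 (SE 0.130, 95% interval -0.11 to 0.46, edgeR adjusted p = 0.670) was the highest of the 10. Fkbp6 (ENSMUSG00000040013, chr5:135291704-135350044, minus strand) encodes a co-chaperone that works with HSP90 when piRNAs are loaded. The controls had 285, 266 and 239.5 CPM against 245, 332 and 275 CPM after loss of Tex15, with Tex15-/- replicate 2 above all controls. This came to a log2 fold change of 0.11 (SE 0.123, 95% interval -0.16 to 0.38, edgeR adjusted p = 0.781).

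Exd1 (ENSMUSG00000048647, chr2:119516505-119547627, minus strand) encodes a protein with an exonuclease-like fold that partners TDRD12 in the amplification of piRNAs. Controls held it at 44.2, 43.3 and 40.9 CPM and Tex15-/- libraries at 41.9, 35.4 and 38.8 CPM. Tex15-/- replicate 1 lay within the control range and replicates 2 and 3 below it. Its log2 fold change was -0.15 (SE 0.135, 95% interval -0.44 to 0.15, edgeR adjusted p = 0.735). In CPM Exd1 was close to Pnldc1, at 42.8 against 41.3 CPM in controls, while per length it was lower, at 2.73 against 5.99 TPM, since its exons span 6042 bp against 2660 bp.

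**Figure D3:**
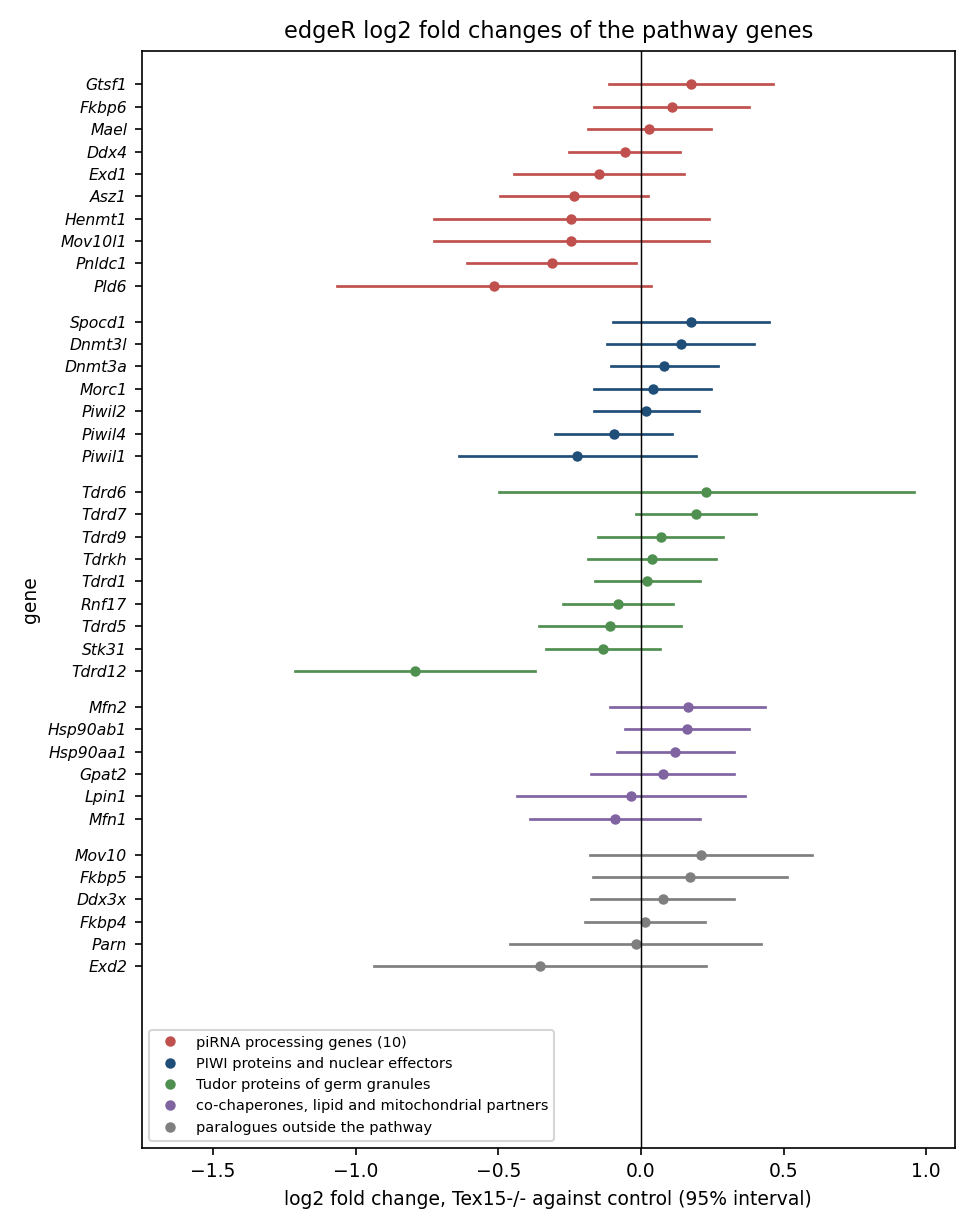
Log2 fold change of Tex15-/- against control from edgeR (x axis, point) with its 95% interval (line) for the 10 piRNA processing genes and for the other pathway genes and relatives (y axis). Of the 10, the interval of Pnldc1 alone excludes 0, from -0.61 to -0.016, and no adjusted p is under 0.01.

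The 10 genes were also set against the germ cell markers of the same library, as reads per 100 reads of those 10 markers. On this scale markers with more reads weigh more, unlike in the size factors from the markers. The sum of the 10 genes was 184, 184 and 186 for controls, against 179.7, 209 and 194 for Tex15-/- libraries, so that the lowest and the highest value were both Tex15-/- libraries. Pnldc1 remained below all controls, with 3.06, 3.08 and 2.97 against 2.70, 2.87 and 2.51. On this scale 3.21% of all genes tested lay below the controls in all libraries. Gtsf1 lay above all controls, at 4.08, 5.07 and 5.02 against 5.24, 6.26 and 6.09, as did 11.8% of all genes tested. Pld6 overlapped on this scale, at 1.15, 0.856 and 1.26 against 0.735, 1.03 and 0.775. Mov10l1 stood at 40.1, 39.8 and 38.2 against 41.9, 24.3 and 41.1, so that its low value in replicate 2 stood on both scales. Dazl, one of these markers, was itself lower in all Tex15-/- libraries than in any control, at 204 to 238 CPM, so the marker sum is not a fixed reference.

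**Figure D4:**
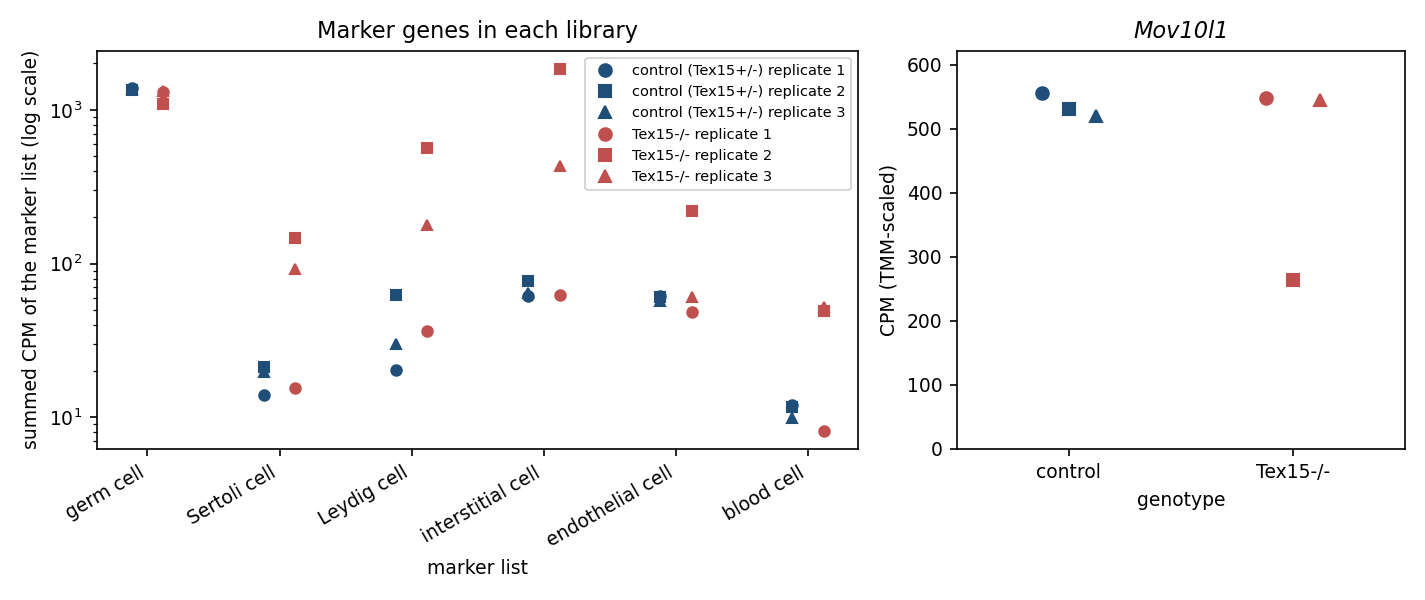
Left, summed CPM on a log scale (y axis) of 6 lists of cell type markers (x axis) in each library. Right, CPM of Mov10l1 (y axis, starting at 0) by genotype. Tex15-/- replicate 2 has the highest Sertoli, Leydig, interstitial and endothelial sums and the lowest Mov10l1 value, 264 CPM, and Tex15-/- replicate 3 has raised Sertoli, Leydig, interstitial and blood sums, an endothelial sum within the control range, and Mov10l1 at 545 CPM.

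The other genes of the pathway were taken as 3 lists of 22 genes in all, of which edgeR tested 22 and called 0, with 1 (Tdrd12) at an unadjusted p under 0.05, where 9.2% of all genes tested were, and DESeq2 called 0. The PIWI proteins and nuclear effectors had 5 of 7 log2 fold changes above 0 and a median of 0.041. Piwil2, which encodes MILI, was their most abundant message at 52.6 ± 2.11 TPM in controls, close to Mov10l1, and had a log2 fold change of 0.018 (edgeR adjusted p = 0.954). Piwil1 had the value farthest from 0, at -0.22 (edgeR adjusted p = 0.706), which moved to -0.018 without Tex15-/- replicate 2. The co-chaperones and the lipid and mitochondrial partners had 4 of 6 above 0 and a median of 0.098. Hsp90ab1, an HSP90 gene, was highest among them at 440.5 ± 16.1 TPM with a log2 fold change of 0.160 (edgeR adjusted p = 0.618), and Mfn2, a mitochondrial fusion gene, was farthest from 0, at 0.163 (edgeR adjusted p = 0.672).

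Among 9 Tudor domain genes of germ granules, 5 were above 0 and the median was 0.022. Stk31 was the most abundant, at 77.9 ± 10.1 TPM, with a log2 fold change of -0.13 (edgeR adjusted p = 0.645). Tdrd12, the partner of Exd1, was at 68.4, 63.8 and 57.5 CPM for controls but 48.5, 28.2 and 33.1 CPM for Tex15-/- libraries, with no overlap. Its log2 fold change was -0.79 (SE 0.190, edgeR unadjusted p = 0.0017, adjusted p = 0.460), lower than that of any of the 10 genes. Tdrd7 of the same list was apart in the other direction, at 173, 169 and 168 CPM for controls against 178, 203 and 201 CPM after loss of Tex15 (log2 fold change 0.19, edgeR adjusted p = 0.573). Of all genes tested, 6.68% lay below the controls in all Tex15-/- libraries and 6.51% lay above them. Over all genes, edgeR called 488 of 42446 without the filter on low counts and 388 of 17520 without Tex15-/- replicate 1. The latter fit kept only Tex15-/- replicates 2 and 3, with 2824 and 813 CPM of somatic markers. Tdrd12 was among the genes called without the filter (-0.76, edgeR adjusted p = 0.000863) and without Tex15-/- replicate 1 (-1.03, edgeR adjusted p = 0.00228). Without the filter, 445 of the 488 calls were higher, and the edgeR adjusted p of Tex15 itself moved from 0.0112 to 2.8e-95. The p-values of that fit are therefore not comparable with those of the main fit. Tdrd12 was not called by DESeq2 (adjusted p = 0.0685). Its adjusted p ranged from 0.000863 to 0.9995 over all alternatives run. Exd1 was at 0.464 to 0.510 of the TPM of Tdrd12 in controls and at 0.620 to 0.903 of it in Tex15-/- libraries. Pnldc1 was at 0.728 to 0.840 of the TPM of Tdrkh, its Tudor partner in trimming, in controls and at 0.599 to 0.643 in Tex15-/- libraries. Another partner pair, Fkbp6 with the HSP90 gene Hsp90aa1, overlapped, at 0.126 to 0.146 in controls and 0.124 to 0.154 in Tex15-/- libraries. The pairs were picked as partners with the data known and the ratios were not tested, and the first ones restate that Tdrd12 and Pnldc1 were themselves lower in all Tex15-/- libraries, while Exd1 and Tdrkh overlapped.

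Mov10l1, Ddx4, Pnldc1, Fkbp6 and Exd1 have relatives with general roles, and Gtsf1 has relatives of its own family that are known from the germline. In gonocytes the gene described here was mostly the more abundant. Mov10l1 exceeded Mov10, which acts on RNA in many tissues, by 16.6-fold to 24.2-fold in controls and by 18.7-fold, 7.22-fold and 17.9-fold in Tex15-/- replicates 1 to 3. Ddx4 exceeded Ddx3x, a general DEAD-box helicase, by 4.49-fold to 5.71-fold over the 6 libraries. Pnldc1 exceeded Parn, a poly(A) ribonuclease, by 1.72-fold to 3.34-fold, and Exd1 exceeded Exd2 by 1.76-fold to 3.32-fold. Fkbp6 exceeded Fkbp5 by 21.9-fold to 25.4-fold but reached only 0.776 to 0.955 of Fkbp4, which at 70.3 ± 3.12 TPM was the highest of the relatives. Gtsf1l and Gtsf2, the relatives of Gtsf1, were at 0.851 and 0.325 TPM in controls, with 1 to 12 reads per library, and were not tested in the main edgeR fit. Of the 8 relatives edgeR tested 6 and called 0, with 0 at an unadjusted p under 0.05 and 0 called by DESeq2, and with a median log2 fold change of 0.044. Exd2 was farthest from 0 among them, at -0.35 (edgeR adjusted p = 0.671), and Fkbp4 had 0.013 (edgeR adjusted p = 0.973). Exd2 ranged from -0.67 to -0.11 when libraries were left out in turn.

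**Figure D5:**
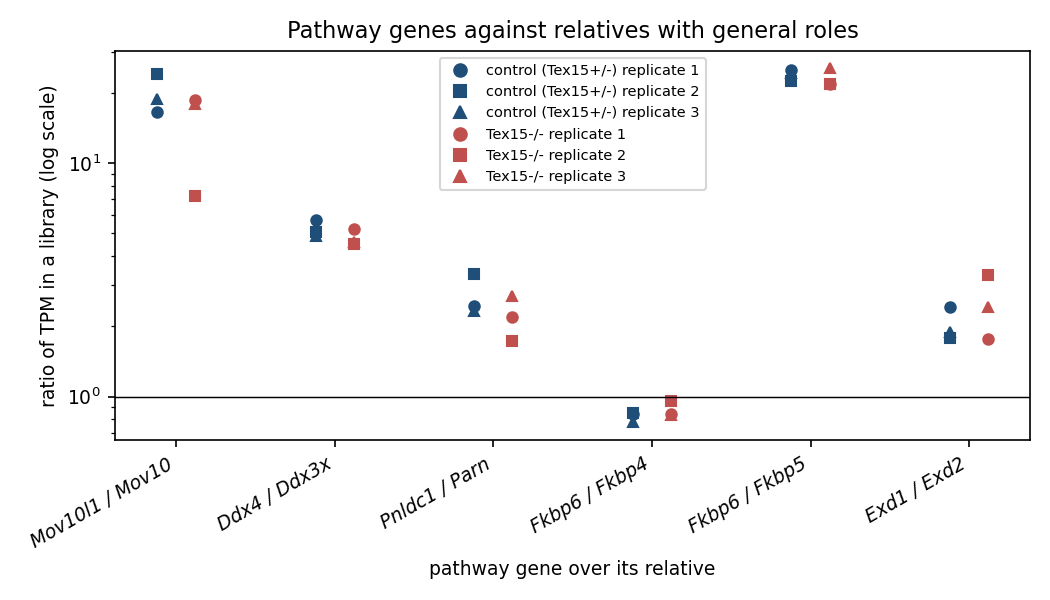
Ratio of the TPM of a piRNA pathway gene to that of a relative with a general role (y axis, log scale) in each library, for 6 pairs (x axis), with a line at a ratio of 1. The ratios of Fkbp6 to Fkbp4 lie below 1, from 0.776 to 0.955, and the ratios of all other pairs lie above 1 in every library.

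Profiles of the 10 genes over the 6 libraries were compared by distance, with no test and no reference for counting noise. With each gene centred on its own mean log2 CPM, the root-mean-square distance from the mean profile of the 10 was smallest for Ddx4, at 0.0628, and largest for Mov10l1, at 0.315, followed by Pld6 at 0.243 and Fkbp6 at 0.226. Pld6 rested on 48 to 94 reads per library, and Mov10l1 stood at -0.857 in Tex15-/- replicate 2. The mean profile of the 10 was lowest in Tex15-/- replicate 2, at -0.17, a place that rests on Mov10l1. Without Mov10l1, the mean of the other 9 was -0.11 in Tex15-/- replicate 1 and -0.099 in replicate 2. Outside the 10, the genes nearest to the mean of all 10 were Prdm4, Ttf1, Trip13, Thnsl1 and Bclaf1, at distances of 0.0342, 0.0356, 0.0369, 0.0381 and 0.0388 over the 6 libraries, and 1 of these 5 was also among the 5 nearest to the mean without Mov10l1. They are the smallest distances of a search over many genes and cannot be set beside the distances of the 10.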

How the data were processed

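RNA was extracted from sorted gonocytes of E16.5 testes, depleted of ribosomal RNA and made into stranded libraries. Alignment by the authors was to GRCm38 with HISAT2, and the tables they deposited hold raw counts for each Ensembl identifier, made with htseq-count (HTSeq 0.11.1 in the submitters' processing notes) and not normalised. Rows of reads assigned to no gene were left out, at 61.3% to 67.3% of each table. The strand setting of the counting is not given in the sources used here, so reads of overlapping antisense genes cannot be told apart. Of 54838 identifiers, 99.79% had a symbol in GENCODE M21. Other libraries of the series were not used here.

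The genotypes were compared with edgeR 4.0.16 under R 4.3.3, with TMM normalisation, filterByExpr (minimum count 10, minimum total 15), the quasi-likelihood test, Benjamini-Hochberg adjustment over 16311 genes and a call at an adjusted p under 0.01. Standard errors are the log2 fold change over the root of F, and intervals are 95%. CPM are TMM-scaled. TPM were computed from the counts and the union of annotated exons, without TMM. Exact permutation tests were two-sided (scipy 1.17.1). As a check of the code, the edgeR and DESeq2 fits were also run on simulated counts with the same spread between libraries for all genes. The simulation held no library with raised somatic markers, so it does not measure how well changes are found here. Named genes are the 10 genes, Tex15, in each of the 3 lists of other pathway genes and the list of relatives the most abundant gene and the tested gene with the largest absolute log2 fold change, any list gene with an adjusted p under 0.05 (there was none), and the 5 genes nearest in profile. Dazl, Sall4, Nanos2, Nanos3, Tex101, Tdrd7, Tdrkh, Hsp90aa1, Mov10, Ddx3x, Parn, Fkbp5, Gtsf1l and Gtsf2 were named outside this rule, after their values were seen, as partners, relatives or markers of the cell type. The search for CACGTG was also chosen after the data were seen. Alternatives were total counts, size factors from germ cell markers, DESeq2 1.42.0, no filter, at least 10 counts in every library, edgeR's newer quasi-likelihood estimate, an adjusted p under 0.05, a replicate block, each library left out, CPM or the longest transcript for levels and, added after the data were seen, Tex15-/- replicate 1 alone against the controls. The genes, lists and tests were chosen with earlier results of these data known.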

Additional observations from a re-analysis of the deposited data

How the results depend on the processing

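None of the 10 genes was called under any alternative run (0 of 10 in each), and their smallest adjusted p was 0.173, for Asz1 without Tex15-/- replicate 1. Over all genes, calls were also rare, at 488 of 42446 with no filter, 388 of 17520 without Tex15-/- replicate 1 and fewer in the other settings. The 0 of 10 is therefore near the share over all genes. Of 140 values of the 10 genes under alternatives, 131 kept their direction and their side of the threshold and 9 changed sign. Those were Mov10l1 at 0.032 without Tex15-/- replicate 2 and 0.033 with Tex15-/- replicate 1 alone against the controls, Mael at -0.0023 with total counts, -0.024 without Tex15-/- replicate 2 and -0.15 with replicate 1 alone, Fkbp6 at -0.016 and -0.11 in the same last settings, and, with size factors from germ cell markers, Ddx4 at 0.16 and Exd1 at 0.058. With libraries left out in turn, Mov10l1 ranged from -0.39 to 0.032, Mael from -0.024 to 0.13 and Fkbp6 from -0.016 to 0.22. The other genes kept their sign in these fits. Pld6 ranged from -0.67 to -0.39, Henmt1 from -0.46 to -0.11, Pnldc1 from -0.34 to -0.27 and Asz1 from -0.29 to -0.14. Exd1 ranged from -0.19 to -0.082, Ddx4 from -0.10 to -0.011 and Gtsf1 from 0.093 to 0.23. The germ cell marker scaling moved the median of all genes to 0.22, and changes under it are relative to that shift. Elsewhere, Piwil2 changed sign to -0.012 with total counts and -0.051 with replicate 1 alone, Stk31 to 0.086 with germ cell marker size factors, and, with replicate 1 alone, Hsp90ab1 to -0.0080 and Exd2 to 0.15. Fkbp4 changed sign to -0.018 with total counts, -0.0054 with at least 10 counts in every library and -0.13 with replicate 1 alone. With libraries left out in turn, Piwil2 ranged from -0.0085 to 0.067 and Fkbp4 from -0.039 to 0.097. The other pathway genes called rose from 0 to 1 (Tdrd12) with no filter, and ranged from 0 to 1 when libraries were left out. The fit with no filter gave Tex15 an edgeR adjusted p of 2.8e-95, so its p-values are not comparable with those of the main fit. All genes called went from 0 to 14 with DESeq2, 488 with no filter, 1 with at least 10 counts in every library, 2 with the newer estimate, 3 at an adjusted p under 0.05 and 18 with replicate 1 alone, and from 0 to 388 when libraries were left out, the 388 without Tex15-/- replicate 1. Tex15 passed the threshold at -2.34 with DESeq2, -2.33 with no filter, -2.37 with at least 10 counts, -2.35 with the newer estimate and -1.78 with replicate 1 alone, and ranged from -2.74 to -2.17 with libraries left out. It was called in 2 of those 6 fits (without Tex15-/- replicate 1 or 2) and not in the other 4, with adjusted p up to 0.256. In the fits with replicate 1 alone that library is assumed to vary like the controls, since its genotype has no second library, so their calls carry little weight. The median rank of the 10 genes among all genes was 633 by TPM, 592 with the longest transcript (Gtsf1 moved from 17.9 to 29.7 TPM) and 1920 by CPM, which does not divide by length. The cause of these changes was not tested.

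Replicate numbers are shared between genotypes, but same-numbered libraries did not deviate together (correlations of -0.143, -0.0434 and -0.0075 over genes). The numbers are used here to name libraries only. These correlations do not show whether same-numbered libraries shared a litter or batch, which is not given. With the replicate block, 0 of the 10 genes, 0 other pathway genes and 0 of all genes were called, and Tex15 was at -2.43. Pld6 rested on 48 to 94 reads per library, and its interval reached from -1.06 to 0.036. A missed threshold does not show that a message is equal between genotypes, and protein was not measured.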
